A study of Mus musculus with 12 samples.

Results

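G2e3, Pgm2, Ano3, BC030307, Ak4 and Pgm1 are 6 of the 37477 rows of a gene expression table from mouse embryonic stem cells. They were chosen by measured values, namely a rise at day 4 against the control or against day 2, or by an enzyme role beside sugar and nucleotide metabolism. The choice named no threshold, and what it used is described below without a test. All 6 rows were among the 8739 rows that reached 10 normalized counts in at least 3 libraries and were tested. The name of a day 4 peak fitted 4 of them: G2e3, Pgm2, Ano3 and BC030307 were higher in every day 4 library than in any other library. Since the choice used a rise at day 4, this largely restates it. The share of all rows with such a pattern was not counted. Pgm1 had its highest group mean at day 4 but overlapped the control and day 2, and Ak4 was lower at day 4 than in the control.

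The cells were CCE mouse embryonic stem cells grown in serum with LIF, a cytokine that keeps such cells undifferentiated. All were transduced with pLKO.1-puro lentivirus and kept under puromycin. The 3 control libraries came from cells with a control hairpin RNA at day 2, and the other groups of 3 came from cells with a hairpin against the long noncoding RNA TUNA at days 2, 4 and 6. The control hairpin was measured at day 2 alone among the libraries used here, so hairpin and time in culture cannot be told apart in comparisons of day 4 or day 6 with it. Labels give no separate cultures for the replicates, so p-values measure the spread between libraries, which may be technical.

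Phosphoglucomutases move a phosphate between the first and sixth carbon of glucose and so join glycogen and UDP-glucose to glycolysis. Adenylate kinases pass phosphate between adenine nucleotides, and AK4, found in the mitochondrial matrix, is known as a gene induced by low oxygen in other cells. G2E3 is a ubiquitin ligase with a HECT-type domain, named for expression in the G2 and M phases and needed in the early mouse embryo. ANO3 belongs to the anoctamins, membrane proteins that carry ions or move lipids, and is best known from neurons. BC030307 is named after a complementary DNA clone and matched no entry of the RefSeq gene table.

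The names of the phosphoglucomutase rows need care. RefSeq (GRCm38.p6) gives Pgm1 to a gene on chromosome 4 with Pgm2 among its synonyms, and Pgm2 to a gene on chromosome 5 with Pgm1 among its synonyms. The table uses many older symbols, with 3043 rows matching RefSeq only through a synonym. Which locus each row counted is therefore not settled by the files, and both rows are called by the name in the table.

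The stretches before the start sites are shown because 4 of the 6 rows were high in the same libraries, a trait that the choice used. Both phosphoglucomutase loci are given, and the sequences do not settle which of them each row counted. RefSeq promoter windows matched 5 of the 6 names, on build GRCm38.p6, whereas mm9 is the build named in the submitters' processing notes. Each line gives the 250 bases before the first listed start, 5′ to 3′ on the gene's strand. Capitals mark ACGTG or GCGTG on either strand, the core of the site that hypoxia-inducible factors bind.
G2e3 (chr12:51347980-51348229, plus strand): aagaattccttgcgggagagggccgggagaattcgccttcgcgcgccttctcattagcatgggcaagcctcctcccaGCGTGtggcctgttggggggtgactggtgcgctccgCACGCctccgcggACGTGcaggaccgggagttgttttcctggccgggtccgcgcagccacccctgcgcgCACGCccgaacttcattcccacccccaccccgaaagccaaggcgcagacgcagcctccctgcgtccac
Phosphoglucomutase locus of chromosome 4 (chr4:99929201-99929450, plus strand): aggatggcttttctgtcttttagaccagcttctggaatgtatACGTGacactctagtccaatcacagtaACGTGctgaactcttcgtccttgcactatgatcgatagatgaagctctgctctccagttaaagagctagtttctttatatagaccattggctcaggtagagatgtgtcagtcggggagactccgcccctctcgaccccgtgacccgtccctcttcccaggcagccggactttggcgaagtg
Phosphoglucomutase locus of chromosome 5 (chr5:64092689-64092938, plus strand): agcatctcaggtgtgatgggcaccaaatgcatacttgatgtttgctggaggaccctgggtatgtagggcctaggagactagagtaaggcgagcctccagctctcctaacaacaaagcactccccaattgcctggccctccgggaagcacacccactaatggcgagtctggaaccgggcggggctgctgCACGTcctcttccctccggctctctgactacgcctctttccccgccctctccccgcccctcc
Ano3 (chr2:110950245-110950494, minus strand): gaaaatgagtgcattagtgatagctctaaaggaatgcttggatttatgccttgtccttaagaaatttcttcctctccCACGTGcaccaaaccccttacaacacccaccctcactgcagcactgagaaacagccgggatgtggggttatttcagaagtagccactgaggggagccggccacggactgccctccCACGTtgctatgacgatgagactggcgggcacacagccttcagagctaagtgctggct
Ak4 (chr4:101419039-101419288, plus strand): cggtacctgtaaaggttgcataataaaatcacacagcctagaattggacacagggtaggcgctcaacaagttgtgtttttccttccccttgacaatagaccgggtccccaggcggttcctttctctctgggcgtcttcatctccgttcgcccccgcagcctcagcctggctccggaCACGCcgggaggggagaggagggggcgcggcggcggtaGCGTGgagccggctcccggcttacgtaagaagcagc

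ACGTG or GCGTG was in 8 of 9 windows, and in 38.6% of all 32851 RefSeq windows of this length. Each of the 5 loci held 1 of them in at least 1 of its listed windows. The share of all loci that do so was not counted, and a difference from other loci was not tested. The first 3 of the 4 Ak4 windows overlap, so they are not separate sequences. In G2e3, ACGTG began 124 bases before the start. The chromosome 4 locus had it at 208 and 181 bases, and the chromosome 5 locus had it on the other strand at 62 bases. In Ano3 the first window held 3 matches, 2 of them the strands of 1 CACGTG, and the second window held none. TTTGAA, an element of promoters active in G2 and M phase, was in 0 of 9 windows (15.99% of all windows). CCAAT was in 5 of 9 windows (33.85% of all windows), among them the overlapping Ak4 windows, and these lay at 3 loci. These matches are letters in a window, not measured binding.

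TUNA itself could not be followed: its row, 2810011L19Rik, stood at 0 in each of the 12 libraries, and the knockdown is not checked by this table. From the spacing of low values the libraries held 3522126 to 5653146 reads. Of these, 60.4% to 76.9% lay in the 3 highest rows, which were Tex14, LOC100503663 and Rnu3a, a row for U3 small nucleolar RNA. Outside them 936421 to 2025000 reads remained. The 6 rows rested on 13 reads (Pgm2, control) to 693 reads (G2e3, day 4) per library. Embryonic stem cell markers (10 of 10 in the table) summed to 3053 to 3261 normalized counts in the control, against 1889 to 2322 at day 6. The fibroblast list (14 genes) summed to 143.1 to 173.2 in the control and 410.7 to 557.1 at day 6, with Col1a1, Col1a2, Col3a1, Dcn, Lum and Postn at 0 in every group. A few genes carried that sum: Sparc averaged 136 and 140, while Tagln went from 6.24 to 149 and Acta2 from 0.368 to 140. Thbs1 went from 1.915 to 34.7 and Timp3 from 2.21 to 21.3, while Pdgfrb went down from 5.20 to 2.78 and Thy1 from 1.86 to 0.520. The endoderm list (11 genes) summed to 146.4 to 190.7 and 309.7 to 632.2, mostly Lrp2 (means 157 and 416), with Sox17, Afp, Ttr and Apoa1 listed at 0 at day 6. For TUNA day 2 the 3 lists summed to 2769 to 2938, 181.5 to 195.3 and 314.2 to 358.1, and for day 4 to 2668 to 2822, 102.1 to 146.7 and 198.3 to 325.6. The part of these shifts in the results below was not tested. In such bulk RNA, fewer expressing cells and less RNA per cell cannot be told apart.

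G2e3, the ubiquitin ligase, gave the tightest picture. Its control libraries had 183, 148 and 152 normalized counts, and those of day 2 had 147, 156 and 150. At day 4 the libraries had 451.1, 510 and 482, and at day 6 they had 165, 174 and 176. The lowest day 4 library thus stood far above the highest of the other 9. Group means were 161 ± 19.1 in the control, 151 ± 4.54 at day 2, 481 ± 29.3 at day 4 and 172 ± 5.81 at day 6 (SD, n = 3). The day 4 mean was 2.99-fold the control and 3.19-fold day 2, and day 6 lay 2.80-fold below day 4. Both folds against earlier groups come from values that chose the gene.

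Pgm2, one of the phosphoglucomutase rows, was low in the control at 14.5, 15.4 and 14.2 normalized counts. It had 28.8, 18 and 22.6 at day 2, all above the control. The day 4 libraries had 85.0, 93.1 and 72.3, and day 6 went back to 18.97, 25.5 and 15.2. Means were 14.7 ± 0.653, 23.1 ± 5.42, 83.5 ± 10.48 and 19.9 ± 5.25 (SD, n = 3) in that order. With 5.67-fold of its control at day 4, it had the largest fold of the 6 rows.

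Ano3, the anoctamin, had 32.2, 21.11 and 18.5 normalized counts in the control, while day 2 had 28.2, 46.9 and 24.7. At day 4 it had 74.4, 74.5 and 121, and at day 6 it had 52.4, 45.6 and 60.3. The day 6 libraries lay between the control and day 4 without overlap with either, while the control and day 2 overlapped. Means were 23.9 ± 7.30, 33.3 ± 11.9, 89.9 ± 26.7 and 52.8 ± 7.33 (SD, n = 3), so day 4 was 3.75-fold the control. Muc15 overlaps Ano3 in RefSeq and reached at most 4.46 normalized counts in a group mean.

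BC030307 had 26.8, 24.8 and 43.7 normalized counts in the control, while day 2 had 42.5, 50.7 and 41.3. The day 4 libraries had 127, 109 and 104, and day 6 had 41.6, 63.1 and 32.8. Day 4 stood alone, and the other groups overlapped one another. Means were 31.8 ± 10.4, 44.8 ± 5.11, 113 ± 12.01 and 45.9 ± 15.6 (SD, n = 3), and day 4 was 3.57-fold the control.

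Ak4, the mitochondrial adenylate kinase, ran the other way. Control libraries had 171, 123 and 122 normalized counts, and day 2 libraries had 110, 129 and 150. At day 4 it had 73.5, 90.4 and 97.8, and at day 6 it had 45.3, 46.0 and 58.8. Every day 4 library lay below every earlier one, and every day 6 library lay below day 4. Means were 139 ± 27.7, 129 ± 19.9, 87.2 ± 12.4 and 50 ± 7.61 (SD, n = 3).

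Pgm1, the other phosphoglucomutase row, had 34.9, 33.2 and 50.2 normalized counts in the control, while day 2 had 41.3, 33.0 and 45.4. It had 31.6, 40.8 and 54.8 at day 4, and 24.3, 17.0 and 21.6 at day 6. The first 3 groups overlapped, and day 6 lay below all of them. Means were 39.4 ± 9.36, 39.9 ± 6.29, 42.4 ± 11.7 and 21.0 ± 3.70 (SD, n = 3). The 2 phosphoglucomutase rows thus had unlike patterns: at day 4 Pgm2 stood at 5.67-fold of its control and Pgm1 at 1.08-fold.

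**Figure D1:**
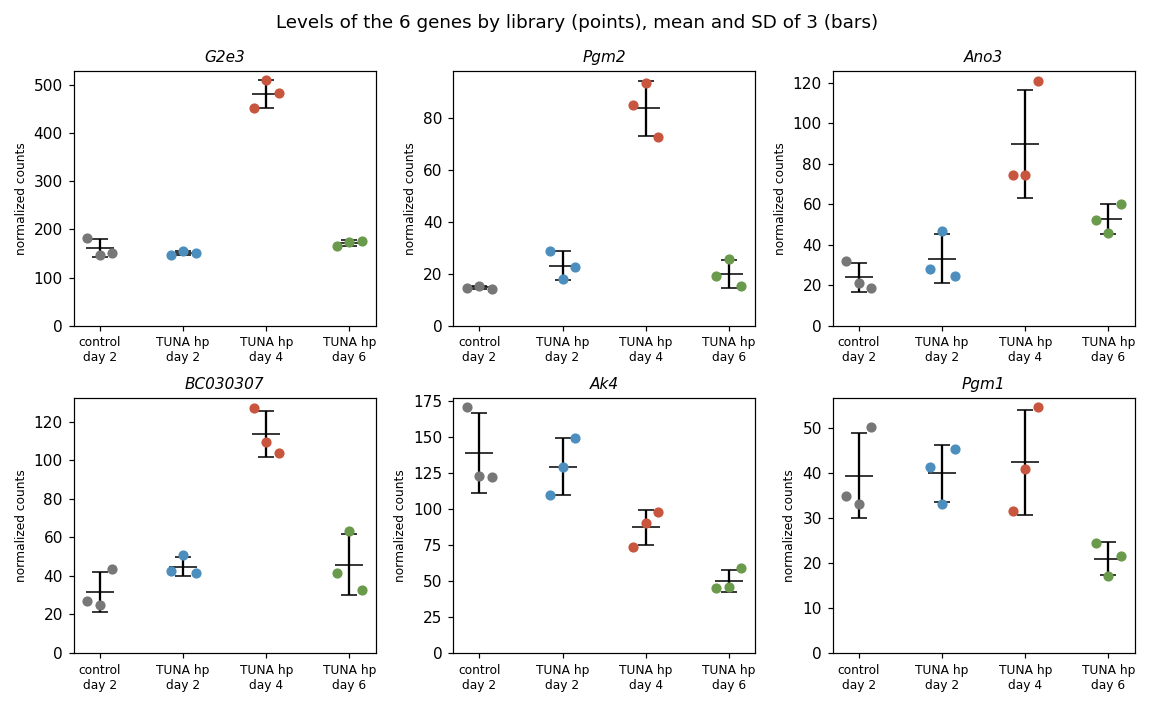
Normalized counts (vertical axes, each from 0) of the 6 genes in the 4 groups; points are libraries, horizontal marks are means and error bars are SD (n = 3), and TUNA hp is the hairpin against TUNA. Day 4 libraries of G2e3, from 451.1 to 510, stand above all others, whereas Ak4 goes down to 45.3 to 58.8 at day 6.

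As a description, the fitted log2 differences of day 4 against the control were 1.58 ± 0.13 for G2e3, 2.42 ± 0.24 for Pgm2, 1.87 ± 0.27 for Ano3 and 1.84 ± 0.25 for BC030307 (SE). They were -0.66 ± 0.19 for Ak4 and 0.09 ± 0.25 for Pgm1. Against day 2 they were 1.67, 1.82, 1.42, 1.32, -0.56 and 0.06 in the same order. From day 4 to day 6 the differences were -1.48, -2.04, -0.73, -1.33, -0.79 and -0.96, beside a median of 0.006 over all rows. The choice used day 4 values, so a fall after day 4 is not a result apart from it. These contrasts share libraries and are not independent. In day 4 against control, 14.7% of all rows passed the test, 6.99% higher and 7.76% lower.

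The stated rule named a rise at day 4, not the comparisons that leave day 4 out. Those comparisons share the control or day 2 libraries with it, and the genes were chosen with earlier results of these data known. They are therefore not independent of the choice. At day 2 the hairpin against TUNA can be set against a control of the same day. By limma with Benjamini-Hochberg adjustment, 0 of the 6 rows passed the threshold of 0.05, 2 had an unadjusted p under 0.05, and 0.961% of all rows passed. Pgm2 had a log2 difference of 0.59 ± 0.24 (limma adjusted p 0.325), with its 3 libraries above all 3 controls. BC030307 had 0.52 ± 0.25 (0.404) and Ano3 0.44 ± 0.27 (0.553). For G2e3 the difference was -0.09, with a 95% interval of -0.37 to 0.20. For Ak4 it was -0.09 (-0.49 to 0.30), and for Pgm1 0.03 (-0.49 to 0.55).

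At day 6 against the control, Ak4 and Pgm1 fell and Ano3 rose: 3 of 6 rows passed, where 6.21% of all rows did. Ak4 was 2.78-fold lower, a log2 difference of -1.45 ± 0.19 (limma adjusted p 0.000161), and no day 6 library reached a control library. Pgm1 was 1.88-fold lower (-0.87 ± 0.25, adjusted p 0.0456 by limma). Ano3 was 2.204-fold higher (1.14 ± 0.27, adjusted p 0.016 by limma). Ak4 passed under all 22 alternatives, Ano3 under 19 and Pgm1 under 9. Ano3 did not pass when control replicate 2, control replicate 3 or day 6 replicate 1 was dropped (adjusted p 0.0646, 0.0748 and 0.0611 by limma). Leaving out any control, day 2 or day 6 library, or day 4 replicate 2, ended the call of Pgm1 (highest adjusted p 0.185 by limma).

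Of the 4 rows whose day 4 libraries stood above all others, Ano3 passed against the control at day 6. G2e3 differed by 0.10 (95% interval -0.18 to 0.38), Pgm2 by 0.38 (-0.14 to 0.90) and BC030307 by 0.51 (-0.01 to 1.03), and these 3 did not pass (limma adjusted p 0.751, 0.432 and 0.266). These intervals leave room for differences of up to 0.90 and 1.03 on the log2 scale for Pgm2 and BC030307.

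Day 6 against day 2 compares cells with the TUNA hairpin at both days, so days in culture and duration of the hairpin cannot be told apart in it. Here 2 of 6 rows passed, against 4.5% of all rows, both lower at day 6. Ak4 changed by -1.35 ± 0.19 (limma adjusted p 0.00042) and Pgm1 by -0.90 ± 0.25 (0.0481). Ano3 had 0.70 ± 0.27 (0.167) and did not pass. The Pgm1 call was lost under 13 of 22 alternatives (highest adjusted p 0.172 by limma), among them leaving out control replicate 1 or 2, any day 2 or day 6 library, or day 4 replicate 2. The share of reads in the 3 highest rows was 73.96% to 75.52% in the control, 72.68% to 74.48% at day 2 and 60.4% to 69.31% at day 6. Whether it bears on Ak4, Ano3 or Pgm1 was not tested.

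**Figure D2:**
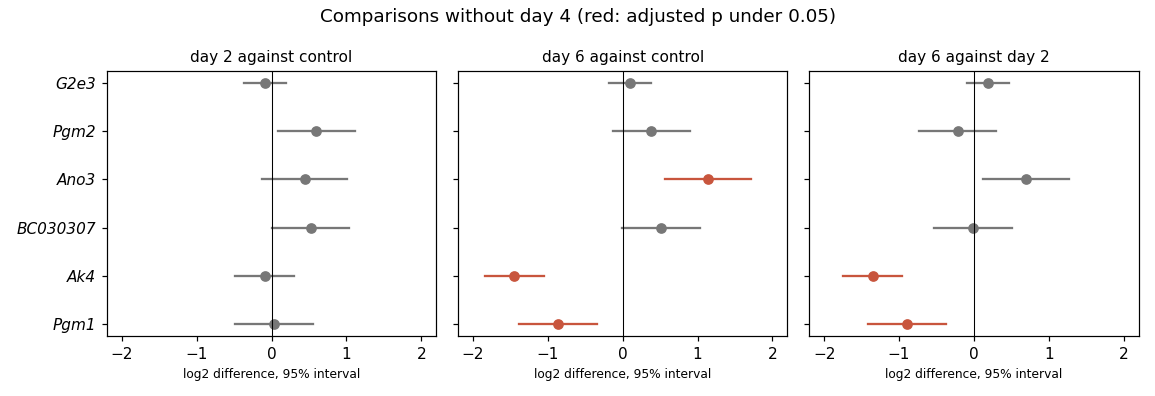
Log2 differences (horizontal axes) of the 6 genes in the 3 comparisons that leave out day 4; points are limma estimates, lines are 95% intervals and red marks an adjusted p under 0.05. At day 6 Ak4 (-1.45) and Pgm1 (-0.87) lie to the left of 0 and Ano3 (1.14) to the right, while no interval in the day 2 panel is red.

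Among 43 genes of sugar phosphate and glycogen metabolism other than the 2 phosphoglucomutase rows, 26 were kept by the filter. Ppp1r3b and Ppp1r3c reached 10 normalized counts in day 4 libraries alone, so their day 4 values are a description. Of the other 24, 3 rose and 2 fell at day 4 against the control, beside 14.7% of all rows. Their median log2 difference was 0.07 against -0.01 over all rows. Ppp1r3c and Ppp1r3b encode subunits that bring protein phosphatase 1 to glycogen. Ppp1r3c had 4.31, 1.54 and 1.10 normalized counts in the control, whereas day 4 had 23.2, 27.4 and 20.4. Ppp1r3b had 7.77 and 4.41 in 2 controls, was listed at 0 in the third, and had 17.6, 30.8 and 17.1 at day 4.

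Galk1, galactokinase, rose from 17.3 ± 4.16 to 43.2 ± 9.01 normalized counts (SD, n = 3; 1.27 ± 0.27, limma adjusted p 0.00412). Gpi1, glucose phosphate isomerase, rose by 0.78 ± 0.25 (0.0421). Hk2, hexokinase 2, fell by 0.45 on the log2 scale (0.0382), and Gfpt1, the first enzyme of the hexosamine pathway, fell by 0.61 (0.0261). Galk1 passed under all 22 alternatives. The day 4 calls of Gpi1, Hk2 and Gfpt1 were lost under 11, 13 and 4 of them (highest limma adjusted p 0.138, 0.12 and 0.103). Those of Gpi1 and Hk2 ended without any 1 control, day 2 or day 4 library. That of Gfpt1 ended when control replicate 1, control replicate 2, day 4 replicate 1 or day 4 replicate 3 was dropped.

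At day 2, 0 of the 26 passed by limma and 7 had an unadjusted p under 0.05. At day 6, 1 of 26 passed, where 6.21% of all rows did: Hk2, at 629 ± 103 normalized counts against 1069 ± 49.6 (-0.78 ± 0.14, limma adjusted p 0.00261). Galk1 was back at 20.4 ± 7.10 and Ppp1r3c was listed at 0 in 2 of 3 libraries. Of the remaining phosphoglucomutase family, Pgm2l1 had 22.9 ± 6.57 in the control and 11.5 ± 1.72 at day 4 (-0.90 ± 0.33, 0.0708), and Pgm3, which acts on N-acetylglucosamine phosphate, had 13.9 ± 2.66 and 7.29 ± 0.590 (0.219). Neither passed. Pgm5 was listed at 0 in 11 of 12 libraries.

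**Figure D3:**
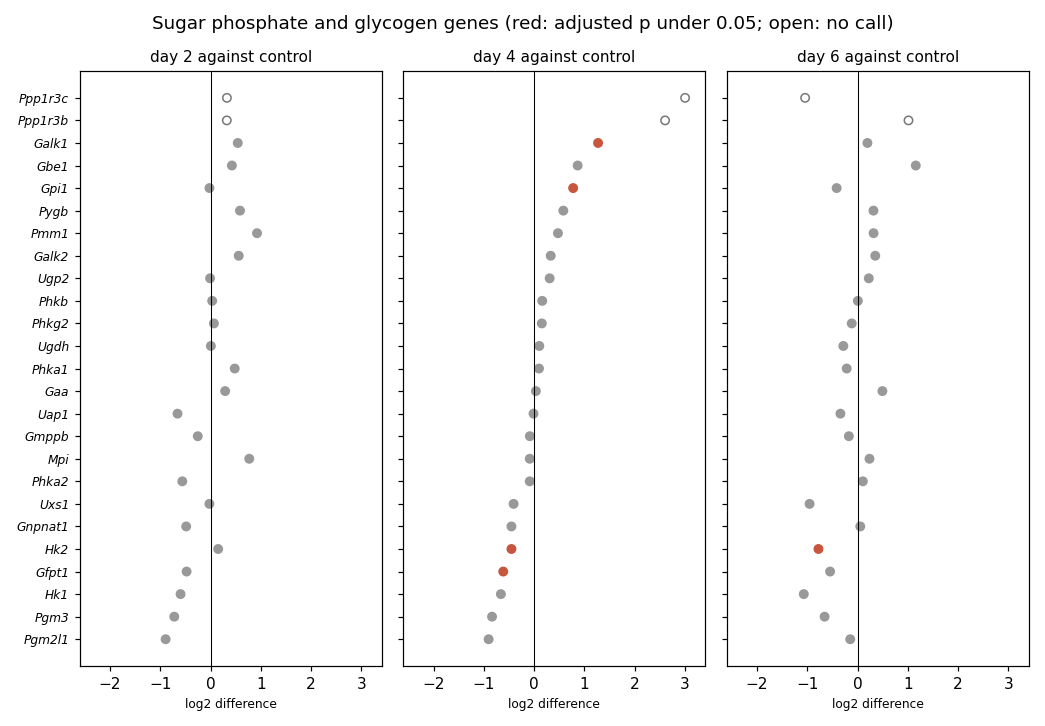
Log2 differences against the control (horizontal axes) of 25 of the 26 tested genes of sugar phosphate and glycogen metabolism at days 2, 4 and 6, in the order of day 4; each point is 1 gene, red marks an adjusted p under 0.05, and open points are the 2 genes kept through day 4 libraries alone, shown without a call. At day 4 Galk1 (1.27) is the red point farthest to the right, and at day 6 Hk2 (-0.78) is the single red point.

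Of 34 genes for nucleotide kinases and salvage enzymes, Ak4 left out, 24 were tested. At day 2, 0 passed by limma, with 3 at an unadjusted p under 0.05. At day 4, 1 of 24 passed, under the 14.7% of all rows: Pnp, purine nucleoside phosphorylase, at 79.5 ± 9.78 normalized counts against 161 ± 34.4 (-0.99 ± 0.18, adjusted p 0.00162 by limma). At day 6, 2 passed, 1 in each direction. Adk, adenosine kinase, rose to 177 ± 50.4 from 74.1 ± 10.9 (1.21 ± 0.21, limma adjusted p 0.00176). Ak3, the other adenylate kinase of the matrix, had 24.6 normalized counts in the control and 30.4 at day 6 and did not pass (0.29 ± 0.27, 0.617). The share called, 2 of 24 at day 6, was near the 6.21% of all rows.

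Of the other 9 anoctamins in the table, 1 was tested, Ano6, the widely expressed lipid scramblase. It had 29.1 ± 5.88 normalized counts in the control, 27.9 ± 11.7 at day 4 and 23.1 ± 2.29 at day 6 and passed against the control on none of the 3 days (lowest limma adjusted p 0.624). Ano4 and Ano7 were listed at 0 in 12 of 12 libraries, and among the untested 8 the highest group mean was 5.77, in Ano10 at day 6.

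G2e3 belongs to the HECT ligases by sequence and to the G2 and M phase genes by name. Of 25 other HECT ligases 19 were tested. At day 4 2 passed, both higher: Smurf2 (0.99 ± 0.22, limma adjusted p 0.00569) and Wwp1 (0.87 ± 0.16, 0.00128). That is 2 of 19, no larger a share than the 14.7% of all rows. At day 6, 1 of 19 passed, Smurf2 (0.78 ± 0.22, 0.0411), near the 6.21% of all rows, and at day 2 0 passed, with 1 at an unadjusted p under 0.05. Smurf2, which acts on TGF-beta signal proteins, had 33.5 ± 9.35 normalized counts in the control, 66.2 ± 4.87 at day 4 and 57.9 ± 13.3 at day 6 (SD, n = 3). Its day 6 call was lost under 12 of 22 alternatives (highest adjusted p 0.195 by limma), among them leaving out control replicate 1 or 2, day 4 replicate 2, or any day 2 or day 6 library.

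Of 25 G2 and M phase genes 23 were tested, and at day 4 they moved both ways, with 5 higher and 3 lower, beside 6.99% and 7.76% of all rows. Hmmr, a spindle protein, rose from 142 ± 7.73 to 258 ± 31.5 normalized counts (0.86 ± 0.14, limma adjusted p 0.000565). Bub1, a spindle checkpoint kinase (0.55, 0.0178), Mki67 (0.45, 0.0211), the kinesin Cenpe (0.44, 0.0347) and the topoisomerase Top2a (0.47, 0.042) were higher as well. Ccna2, cyclin A2, fell by 0.68 on the log2 scale (0.0121), Cdc20, an activator of the anaphase-promoting complex, fell by 0.71 (0.0294), and the kinase Aurka fell by 0.51 (0.042). Their median difference was 0.21, and G2e3 stood at 1.58. Calls of Top2a, Aurka, Cenpe, Cdc20, Bub1, Mki67 and Ccna2 at day 4 were lost under 13, 14, 9, 6, 4, 4 and 2 of 22 alternatives (highest limma adjusted p 0.157, 0.13, 0.1, 0.137, 0.0852, 0.0945 and 0.0655). Without day 4 replicate 2 all 7 were lost. Other libraries that ended a call were any control or day 4 library for Aurka and Cenpe, any day 4 library or control replicate 1 or 3 for Cdc20, control replicates 1 and 3 and day 4 replicate 1 for Bub1, and control replicate 3 for Mki67 and Ccna2. For Top2a they were control replicates 2 and 3, all day 2 and day 4 libraries and day 6 replicate 1, and for Aurka also day 2 replicates 2 and 3 and day 6 replicate 1. At day 2, 1 of 23 passed, beside 0.961% of all rows: Ccna2 (-0.92, limma adjusted p 0.0123). At day 6, 1 of 23 passed, beside 6.21%: Hmmr (0.57, 0.0168). The first was lost without control replicate 3 or any day 2 library (up to 0.0665), the second without control replicate 1 or 3 or day 6 replicate 1 (up to 0.0695).

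Neighbouring genes in RefSeq were compared to see whether a change extended beyond a member. Ak4 lies between Jak1 and Dnajc6. Jak1, a kinase of the LIF receptor, had 116 ± 28.3 normalized counts in the control and 125 ± 14.3 at day 6 (SD, n = 3; 0.13 ± 0.21, limma adjusted p 0.802). Dnajc6, the clathrin uncoating factor auxilin, had 31.5, 35.0 and 33.1 in the control, 40.1, 40.9 and 57.9 at day 2, 27.3, 12.5 and 27.9 at day 4, and 11.3, 10.8 and 6.64 at day 6. It fell by 1.73 on the log2 scale at day 6 (adjusted p 0.00209 by limma), under all 22 alternatives, and its day 4 difference of -0.62 ± 0.30 did not pass (0.181).

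Scfd1, next to G2e3, had 9.44 ± 1.23 normalized counts in the control and 10.6 ± 2.74 at day 4 (0.12 ± 0.37, limma adjusted p 0.863). Prkd1 on the other side was listed at 0 in 10 of 12 libraries. At the chromosome 5 phosphoglucomutase locus, Rell1 (-0.16 ± 0.40) and Tbc1d1 (-0.35 ± 0.33) did not pass at day 4 (adjusted p 0.835 and 0.52 by limma). At the chromosome 4 locus Efcab7 was listed at 0 in all 12 libraries, and Ror1 in 6. Slc5a12, beside Ano3, was listed at 0 in 7.

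**Figure D4:**
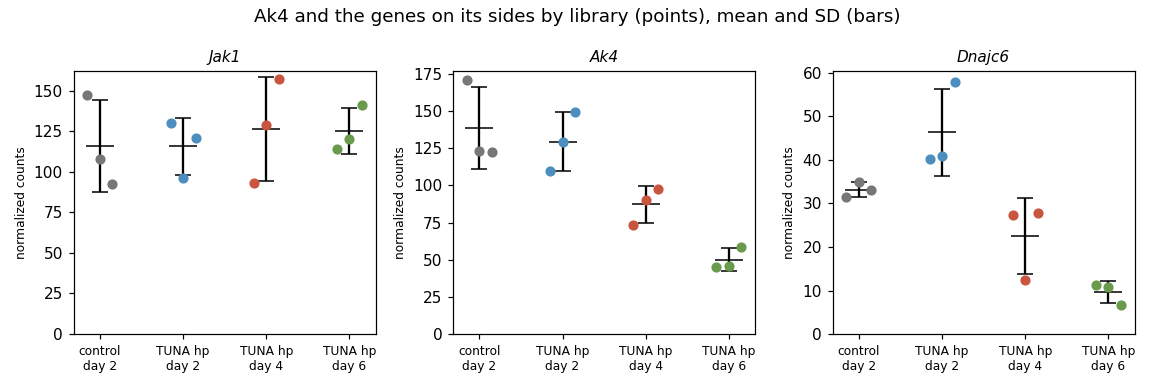
Normalized counts (vertical axes, each from 0) of Jak1, Ak4 and Dnajc6, in the order of the chromosome; points are libraries, horizontal marks are means and error bars are SD (n = 3). Dnajc6 is at 6.64 to 11.3 in the day 6 libraries and at 31.5 to 35.0 in the control, while the Jak1 groups overlap.

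The rows most like each member were found by the root mean square difference of log2(value + 1), centred on each row's mean over the 12 libraries. The 3257 rows that average at least 50 normalized counts, members left out, were compared. The search used all 12 libraries, day 4 included, so a pattern shared with the member follows from it and is a description. Closest to G2e3 were Tpi1, triosephosphate isomerase (difference 0.178), Rnf19a, a ubiquitin ligase (0.182), and Pgk1, phosphoglycerate kinase (0.224). Tpi1 had 156 ± 19.2, 141 ± 13.2, 385 ± 46.7 and 168 ± 13.4 normalized counts from the control to day 6. Closest to Pgm2 were the collagen hydroxylases Plod2 (0.341) and P4ha1 (0.403), followed by Cdk8 (0.419). Plod2 had 27.5 ± 6.02, 48.6 ± 3.27, 156 ± 29.2 and 55.9 ± 1.74.

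Ano3 was followed most closely by Pros1, which encodes protein S of blood clotting (0.304), Ube2b (0.351) and Skil (0.364). Skil, a regulator of TGF-beta signalling, had 171 ± 17.1, 264 ± 11.5, 559.8 ± 25.1 and 376 ± 39.0. For BC030307 the rows were Klhl24 (0.259), Ccdc30 (0.335) and the small nucleolar RNA Snora43 (0.349). Klhl24 had 61.7 ± 5.80 in the control and 182 ± 14.4 at day 4.

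Closest to Ak4 were Acp6 (0.187), Aebp2, a partner of Polycomb complex PRC2 (0.255), and Ly75 (0.272). Acp6, a lysophosphatidic acid phosphatase of mitochondria, had 128 ± 31.2, 140 ± 16.6, 101 ± 5.37 and 47.3 ± 8.60 normalized counts. Closest to Pgm1 was Rnu3a, the U3 row that holds much of each library (0.168), then Cadm1 (0.239) and Snora74a, another small nucleolar RNA (0.246). Rnu3a averaged 1804000 normalized counts in the control and 1109000 at day 6. Whether the lower Pgm1 value at day 6 is linked to that shift was not tested.

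**Figure D5:**
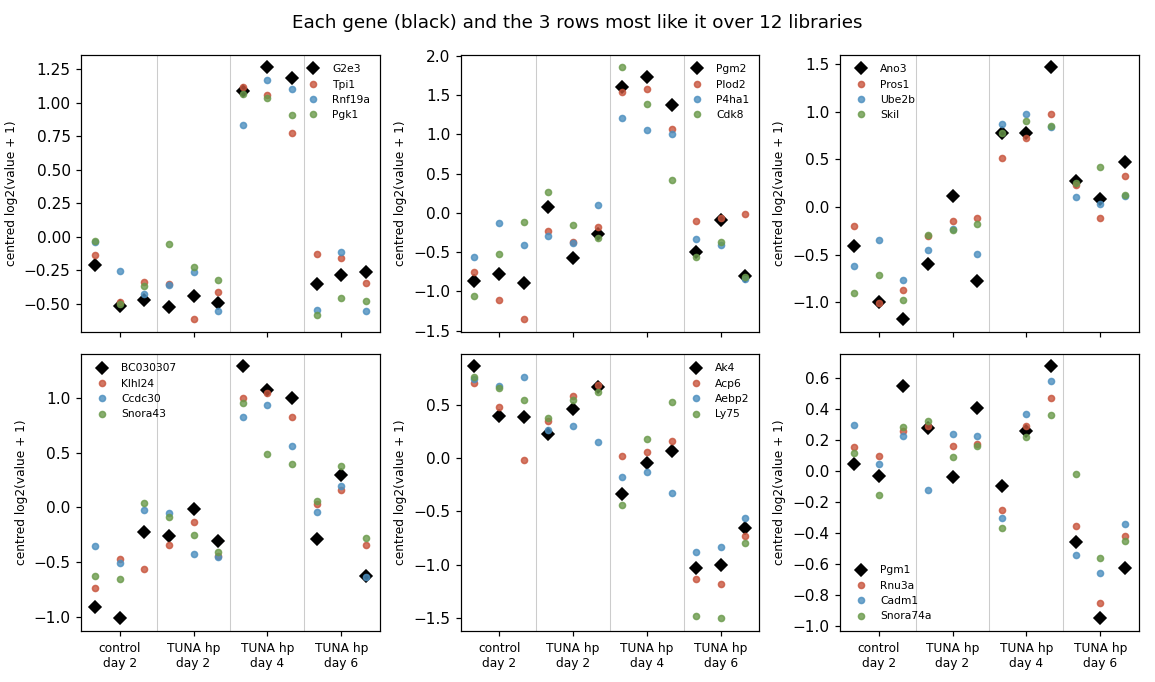
Centred log2(value + 1) (vertical axes) of each of the 6 genes (black diamonds) and of the 3 rows most like it (coloured points) in the 12 libraries, by group (horizontal axes). The rows were picked for likeness over these same libraries. G2e3, Tpi1, Rnf19a and Pgk1 are high in the 3 day 4 libraries, and Pgm1 and Rnu3a are both lowest in the same day 6 library.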

How the data were processed

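The authors deposited 1 table of log2 normalized counts for 37477 gene symbols in 12 libraries of total RNA. No value is under 0, so 0 marks a normalized count of at most 1. Per the submitters' processing notes, BWA, DESeq and build mm9 were used, in roles and versions that are not stated; the counting, its use of strand and the sharing of reads between near-identical genes are not given in the sources used here. Few of the members' values were whole reads (BC030307 in 6 of 12 libraries, Ano3 and Pgm1 in 0, within 0.02 of a read), so no count test was run.

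Normalized counts were recovered as powers of 2, and a listed 0 was kept as 0, which makes means that include it lower bounds. The 8739 rows with 10 or more normalized counts in 3 or more libraries were fitted as log2(value + 1) with limma 3.58.1 in R 4.3.3, 1 coefficient per group over all 12 libraries and an intensity trend (residual degrees of freedom 8, prior 9.48). Benjamini-Hochberg adjustment ran over all rows, with a threshold of 0.05. Log2 differences are on that scale, which understates changes of low genes; their errors are SE. Simulated data with planted changes larger than most of those reported here served to check the fit. They do not show how well smaller changes are found.

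The members and lists were chosen with earlier results of these data known. Named genes are the 6 members, list genes that passed against the control, the nearest RefSeq protein-coding gene on each side, and the 3 rows most like each member; family relatives of the members (Pgm2l1, Pgm3, Pgm5, Ak3 and the anoctamins) were added after their values were seen. Some list genes that passed are not reported here by name. The lists, of 4 sets of marker genes and 5 of pathway genes, were fixed with the tests. Of the neural marker list, 7 of 8 were in the table. They summed to 21.5 to 37.0 normalized counts in the control and 46.5 to 56.1 at day 6. Nes carried most of that rise (means 4.64 and 28.4), while Tubb3 went down (16.3 and 8.96). Olig2 and Zic1 were listed at 0 in every group. Alternatives were 3 scalings, 2 filters, 2 pseudocounts, no trend, only the groups compared, a replicate block, and leaving out each library in turn. Plots used Python 3.11.15 and matplotlib 3.10.9.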

Additional observations from a re-analysis of the deposited data

Results flagged for a closer look

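Of the 6 genes, 2 differed between day 6 and day 2 of the TUNA hairpin, beside 4.5% of all rows. Cells of both days had the TUNA hairpin, so days in culture and duration of the hairpin cannot be told apart. Ak4 moved by -1.35 on the log2 scale, with each of 3 day 6 libraries below all 3 day 2 libraries (limma adjusted p 0.00042). Pgm1 moved by -0.90, again with no overlap of the libraries (limma adjusted p 0.0481, above the threshold under 13 of 22 alternatives). The share of all rows without such overlap was not counted. Groups of 3 libraries are too small to single out a library within a group.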

How the results depend on the processing

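Of the 6 genes, 0 passed at day 2 under every alternative run. At day 6 against control 3 passed, and 1 to 3 with 1 library left out; at day 6 against day 2 it was 2, and 1 to 2. With upper-quartile scaling, no filter, no trend or only the 2 groups compared, 1 of 6 passed at day 6 against day 2, since Pgm1 did not. The other scalings, filters and pseudocounts kept the number of members passing within 1.5 times, and no scaling moved the median of all rows by over 0.044. Descriptive day 4 differences moved by less than the spread between libraries, except that of Pgm2 against the control with a pseudocount of 5 (2.16). Leaving out 1 library gave 9 to 51 higher and 9 to 60 lower rows at day 2 (36 and 48 with all), 365 to 729 and 445 to 798 at day 4 (611 and 678), 131 to 304 and 160 to 333 at day 6 (268 and 275), and 58 to 198 and 92 to 270 for day 6 against day 2 (171 and 222). Without a trend 18 higher and 19 lower rows passed at day 2, and without a filter 27 lower. Over the 5 pathway lists, 12 genes were higher and 6 lower at day 4, where 6.99% and 7.76% of all rows were. With 1 library left out the counts were 5 to 13 and 2 to 7, and without a trend 7 were higher. Ppp1r3b and Ppp1r3c, kept through day 4 libraries alone, are counted in the 12 and the 7 and can be in the range. Day 4 counts of higher list genes are therefore partly a description. At day 6, 3 were higher and 2 lower (1 to 3 each; 1 higher and 1 lower without a trend, 1 lower with only the 2 groups compared). At day 2, 0 were higher and 1 lower (0 to 1; 0 without a trend).

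Replicate numbers showed no pairing of the libraries. Deviations of same-numbered libraries correlated at -0.277 to 0.328 over 18 pairs (median 0.018). Those of libraries with other numbers correlated at -0.331 to 0.315 over 36 pairs (median -0.0005). With the replicate number as a block, 0 of the 6 genes passed at day 2 and 3 at day 6. For day 6 against day 2 it was 2. Among list genes at day 4, 10 were higher, Ppp1r3b and Ppp1r3c among them, and 4 lower. With 3 libraries per group and as few as 13 reads behind a value, small differences of Pgm2, Ano3, BC030307 and Pgm1 were not detectable at this depth.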
